A study of Mus musculus with 18 samples.

Results

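The first response of the testis to follicle-stimulating hormone (FSH) was measured in 4 hypogonadal (hpg) male mice treated for 12 h, beside 4 untreated hpg males. These 8 arrays, of 18 in the series, are the 12 h mice 1 to 4 and controls 4 to 7. They were taken by their labels and by a bacterial spike-in RNA, Dap, which was present on all 8 of them. The other arrays hold 4 mice treated for 72 h, 3 treated for 24 h and controls 1 to 3.

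Every mouse was an adult male of 10 weeks carrying the hpg defect, so both groups lacked gonadotrophin-releasing hormone and, with it, nearly all FSH and luteinising hormone of their own. Treated mice were given recombinant FSH under the skin, 8 IU in 0.2 ml of buffered saline at 12 h intervals, and were killed 1 h after the last dose. Controls were untreated rather than injected with saline, so effects of FSH and of injection cannot be told apart. The time of day at which either group was killed is not given in the sources used here. Each array (Affymetrix MOE430A) held RNA from the testis of 1 mouse, labelled from 8 µg, and arrays within a group therefore differ by animal as well as by hybridisation.

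FSH acts on Sertoli cells, which form the wall of the seminiferous tubules and nurse the germ cells. Its receptor couples to the stimulatory G protein, which raises cyclic AMP (cAMP), activates protein kinase A and lets the factor CREB act at cAMP response elements. Leydig cells, which lie between the tubules and make androgen, lack the FSH receptor and answer to luteinising hormone. In the hpg testis the tubules are small and germ cell development mostly stops during meiosis.

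The promoter sequences below are shown because they hold the elements through which cAMP and sterol signals are known to act, in genes that changed at 12 h. They come from the RefSeq promoter table for GRCm38.p6 and lie within the 250 bases before a gene's start. The full cAMP element, TGACGTCA, was searched on both strands and was present for 1.77% of the 27025 genes of that table. Of the 138 genes named here by rule, 103 were in the table, and the full element was found only for Hlf, a clock output factor that fell; it was in 0 of the 19 promoters of the largest rises and 0 of the 16 of the largest falls. The short form, TGACG, was present for 19.8% of all genes, for 3 of 19 rises, for 2 of 16 falls and for 3 of 5 named immediate early genes. Those 3 were Nr4a1, Per1 and Fos, which were chosen for display after their values were seen. The sterol element TCACNCCAC was present for 1.22% of genes and for 1 of 4 named cholesterol genes, Hmgcs1. Capitals mark, on the strand of the gene, the element named for each gene: the full one for Hlf, the sterol one for Hmgcs1 and the short one for the others, with CGTCA the short element read on the other strand. The full element contains the short one, and the Hmgcs1 stretch also holds a short element, left in lower case. The window of Nr4a1 holds 4 short elements, of which 2 are shown, and that of Fos holds 2, of which 1 is shown.
Fos (chr12:85473799-85473853, + strand, element 66 bases before the start): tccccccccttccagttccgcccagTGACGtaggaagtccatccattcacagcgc
Nr4a1 (chr15:101266752-101266835, + strand, elements 69 and 40 bases before the start): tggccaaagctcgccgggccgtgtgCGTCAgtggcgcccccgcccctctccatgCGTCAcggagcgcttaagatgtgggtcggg
Per1 (chr11:69099995-69100049, + strand, element 132 bases before 1 of its starts): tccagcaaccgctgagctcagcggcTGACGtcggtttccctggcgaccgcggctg
Hlf (chr11:90390918-90390951, - strand, element 9 bases before the start): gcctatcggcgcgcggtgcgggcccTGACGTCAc
Hmgcs1 (chr13:119690189-119690247, + strand, element 137 bases before the start): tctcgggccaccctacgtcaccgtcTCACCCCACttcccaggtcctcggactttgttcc
A match says only that these letters occur there. The element CAAGGTCA, which NR5A receptors such as steroidogenic factor 1 bind, was present for 1.51% of genes and, among those named, for Bhmt and Dhcr7.

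All values are log2 expression values as deposited, given for controls 4, 5, 6 and 7 and then for 12 h mice 1, 2, 3 and 4, in that order. A level is such a value, and a difference is the 12 h mean minus the control mean with its standard error (SE) from limma, n = 4 against 4, adjusted by Benjamini-Hochberg over 22626 probe sets. A probe set was called when its adjusted p was below 0.05. Values of 2 to 4 are near the floor of the array, where a fold understates a change. Array medians lay between 4.49 and 4.52 at 12 h and between 4.54 and 4.63 in the controls. The Dap level was 8.05 to 8.77 at 12 h and 8.35 to 8.86 in the controls, and 18S ribosomal RNA read 3.35 to 3.42 and 3.37 to 3.70.

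Control 6 stood apart. It lay more than 1 log2 unit above each other control at 439 probe sets, against 10 to 53 for the other controls and 5 to 28 among the 12 h mice. Transcripts of spermatids stood out most. Prm1, a protamine that packs DNA in spermatids, read 2.84, 2.81, 13.01 and 2.86 in the controls and 2.88, 2.85, 2.84 and 2.74 in the treated mice. Tnp2, a transition protein of the same stage, read 2.44, 2.39, 12.06 and 2.49 in the controls and 2.50, 2.46, 2.39 and 2.39 in the treated mice. The mean level over 17 pachytene and spermatid markers was 9.56 in control 6 and 3.85 to 5.07 in the other controls, with 4.06 to 4.86 at 12 h, and 16 of the 17 read at least 6 in control 6. Control 5 lay at the other end for pachytene transcripts. Ldhc, the germ cell lactate dehydrogenase, read 10.96, 6.48, 12.42 and 11.45 in the controls, and control 5 was more than 1 unit below each other control at 190 probe sets. Every result was therefore also computed without control 6, and where a named call was lost without it the difference without it is given.

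**Figure D1:**
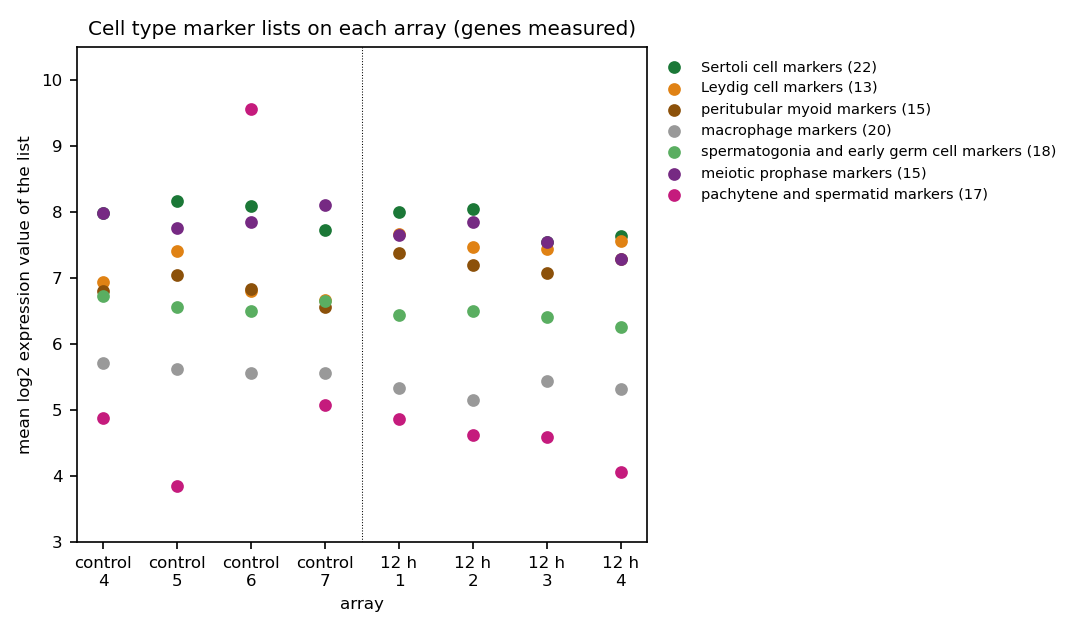
Mean log2 expression value of 7 cell type marker lists (vertical axis) on each of the 8 arrays (horizontal axis, controls 4 to 7 and 12 h mice 1 to 4), 1 point per list and array, with the number of measured genes in brackets. The pachytene and spermatid list stands at 9.56 in control 6 and at 3.85 to 5.07 on the other arrays, and each of the other lists spans far less.

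The testis markers were otherwise as labelled. Of 22 measured Sertoli cell markers, 16 or 17 read at least 6 in each control and 14 to 16 in each treated mouse, and markers of epididymis, fat and red blood cells had 0 members at that level on any of the 8 arrays. Sertoli identity genes did not pass the test. Sox9, a factor that specifies Sertoli cells, read 8.80, 8.64, 8.70 and 8.98 in the controls and 8.62, 8.74, 8.57 and 8.86 in the treated mice. Wt1 and Gata4, also factors of this cell, had differences of 0.02 ± 0.23 (adjusted p = 1) and 0.21 ± 0.09 (adjusted p = 0.361). Their groups overlapped, as did those of Vim, an intermediate filament (0.52 ± 0.15, adjusted p = 0.135). Amh, a hormone of immature Sertoli cells, was at the floor on all 8 arrays, 1.54 to 1.58. In whole tissue, a change in the number of cells of a type and a change in RNA per cell cannot be told apart.

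After 12 h, 937 of 22626 probe sets were called (4.14%), 543 higher (2.40%) and 394 lower (1.74%). Of these, 335 differed at least 2-fold, 194 higher and 141 lower. Counted once for each of 12393 genes, the calls came to 609 (4.91%). They were 325 rises (2.62%) and 284 falls (2.29%), around a median difference of -0.00 over all genes. These shares are the background for every list count below. They take in genes near the floor. A fit over the 12176 probe sets with a mean of at least 4 called 1141, 684 higher and 457 lower, a larger share. For lists with few genes near the floor, the shares over all genes are therefore a low background. An unadjusted p below 0.05 was reached by 3604 of the 22626 probe sets, to be set beside the unadjusted counts below. The share of called probe sets that were higher was 58.0%, and it was 70.6% (707 higher, 294 lower) when each array was centred on its median, which moved the median of all differences from -0.003 to 0.063. Without control 6, 889 were called, 444 higher and 445 lower, and 689 of the 937 were again called in the same direction. With other single arrays left out the count ran from 497 (without 12 h mouse 4) through 527 (12 h mouse 3), 545 (control 7) and 596 (control 4) to 768 (control 5), and 398 were called in all 8 such fits. All 937 calls had groups without overlap, so separation of the groups adds nothing to a call. The 30 largest rises and 20 largest falls were taken among called genes without overlap whose higher group averaged at least 5. Of them, 44 were called in all 8 such fits. Where a call depended on single arrays, the text names the arrays without which it was lost, or, if most omissions ended it, the only arrays without which it held, with the range of differences over the 8 omissions.

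**Figure D2:**
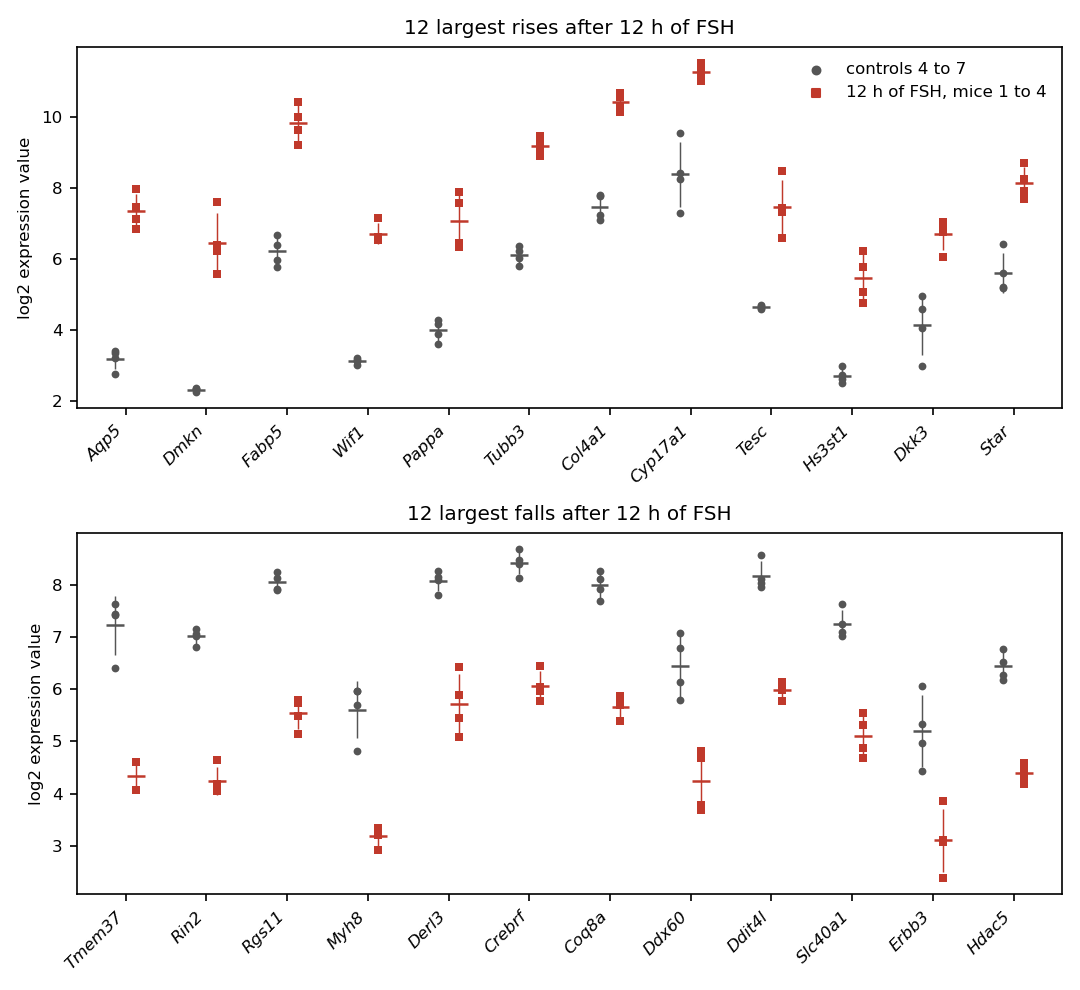
Log2 expression value (vertical axis) of the 12 genes with the largest rise (top) and the 12 with the largest fall (bottom) after 12 h of FSH, 1 point per array, with the mean as a horizontal bar and the SD as a vertical line (n = 4 per group). The genes were chosen among calls whose groups do not overlap. Aqp5 rose from between 2.77 and 3.42 to between 6.86 and 7.98, and Rin2 fell from between 6.81 and 7.16 to between 4.06 and 4.64.

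Genes at the receptor itself were lower. Fshr, the FSH receptor, read 6.78, 6.62, 6.39 and 6.24 in the controls and 5.23, 5.39, 5.50 and 5.52 in the treated mice, and its groups did not overlap. It fell by 1.10 ± 0.13 on the log2 scale (2.14-fold, adjusted p = 0.00513). The call was lost when all 7 controls were used without regard to array set (difference -0.71) or when control 2 was added (difference -0.88). RGS proteins speed the return of G proteins to their inactive state. Rgs11 read 8.14, 8.25, 7.91 and 7.92 in the controls and 5.48, 5.14, 5.80 and 5.73 in the treated mice, a difference of -2.52 ± 0.16 (5.73-fold, adjusted p = 0.000724). Rgs10 and Rgs2 were also lower, with differences of -1.29 ± 0.23 (adjusted p = 0.0277) and -1.08 ± 0.19 (adjusted p = 0.0285). With Fshr they were the 4 lower of 21 measured genes for the receptor, its desensitisation and RGS proteins, against 2.29% of all genes, 0 were higher, and the median was -0.00. The count of 4 became 2 with all 7 controls and without 12 h mouse 1, 2 or 4, control 4 or control 7. The call of Rgs10 held only without 12 h mouse 3 or control 5, with differences of -1.46 to -1.16, -1.32 without control 6, and that of Rgs2 only without control 6, with -1.28 to -1.0. Rgs2 was lowest in control 6 (10.07, 10.12, 9.29 and 10.07 in the controls), and its difference without that array was -1.28.

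Genes of the cAMP pathway were called about as often as all genes. Of 26 measured, 1 was higher and 0 lower, against 2.62% and 2.29% of all genes, with a median of -0.01. Of 12 cyclic nucleotide phosphodiesterases none was called by limma (1 at an unadjusted p below 0.05), with differences from -0.51 to 1.40. The mean level was below 4, near the floor, for 8 of the 26 and 9 of the 12. Several members of both lists, Pde4d among them, were not measured. Prkaca, the catalytic subunit alpha of protein kinase A, read 7.16, 7.07, 7.42 and 6.99 in the controls and 7.61, 7.62, 7.61 and 7.56 in the treated mice, a difference of 0.44 ± 0.09 (adjusted p = 0.044). Its call held only without control 6, with differences of 0.38 to 0.52. The phosphodiesterase at 1.40 was Pde4b, which breaks down cAMP and is named here after its values were seen. It read 2.98, 3.26, 2.64 and 2.65 in the controls and 5.36, 3.49, 3.60 and 4.68 in the treated mice, without overlap, and did not pass the test (adjusted p = 0.153).

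Immediate early genes, which respond to signals without new protein synthesis, moved in both directions. Of 35 measured, 4 were higher (Nr4a1, Fos, Per1 and Klf10) and 3 lower (Ccn2, Ier3 and Ier5). Over all genes 2.62% were higher and 2.29% lower, and the median of the list was 0.01. Nr4a1, an orphan nuclear receptor whose promoter stretch is printed above, read 5.19, 4.65, 5.09 and 4.70 in the controls and 6.28, 6.53, 7.43 and 6.79 in the treated mice. It rose by 1.85 ± 0.26 (3.61-fold, adjusted p = 0.0107) and was above every control in each treated mouse. Fos, a subunit of the factor AP-1, read 5.30, 5.56, 4.91 and 4.75 in the controls and 6.42, 6.05, 7.32 and 6.67 in the treated mice, a difference of 1.49 ± 0.30 (adjusted p = 0.0411). Ccn2, a matricellular growth factor, read 8.24, 7.76, 8.71 and 8.37 in the controls and 6.58, 6.65, 6.75 and 6.60 in the treated mice and was lower, at -1.62 ± 0.18 (3.08-fold, adjusted p = 0.00488). Ier3 and Ier5 had differences of -1.40 ± 0.28 (adjusted p = 0.0399) and -0.69 ± 0.13 (adjusted p = 0.0303). Nr4a1 and Ccn2 were called in every fit with 1 array left out. The call of Fos held only without 12 h mouse 2 (differences 1.25 to 1.68, 1.41 without control 6), that of Klf10 only without control 5 (0.52 to 0.70, 0.52 without control 6), that of Ier3 only without 12 h mouse 3 (-1.66 to -1.21, -1.49 without control 6) and that of Ier5 only without control 4, control 5 or control 6 (-0.76 to -0.59). Without control 6, where 2.18% of all genes were higher and 2.51% lower, 2 members were called higher and 2 lower. Cebpd, 1 of 5 measured C/EBP factors and the only one called, read 4.65, 4.70, 4.89 and 3.64 in the controls and 5.74, 6.46, 5.96 and 6.10 in the treated mice, a difference of 1.59 ± 0.29 (adjusted p = 0.0307) that held only without control 6 or control 7 (differences 1.32 to 1.73).

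The circadian clock list had 5 of 16 measured members lower and 1 higher, against 2.29% and 2.62% of all genes, with a median of -0.02. The clock is a feedback loop in which the Clock and Arntl factors drive the Per, Cry and Nr1d genes and, as output, the PAR bZIP factors Dbp, Tef and Hlf. Dbp read 10.28, 10.84, 11 and 10.88 in the controls and 8.61, 8.74, 8.56 and 9.13 in the treated mice, a difference of -1.99 ± 0.19 (3.97-fold, adjusted p = 0.00274). Per3 read 6.21, 6.42, 6.97 and 6.70 in the controls and 4.70, 4.41, 4.79 and 4.99 in the treated mice, and Nr1d2, a repressor in the loop, read 10.54, 10.51, 10.35 and 10.57 in the controls and 9.25, 8.87, 8.90 and 9.11 in the treated mice. Their differences were -1.85 ± 0.19 (adjusted p = 0.00313) and -1.46 ± 0.10 (adjusted p = 0.000854), and neither gene's groups overlapped. Tef and Hlf were lower, at -0.94 ± 0.11 and -0.94 ± 0.17 (adjusted p = 0.00521 and 0.0258). Tef had 2 other, dimmer probe sets, at 0.05 and 0.03, that were not called. Per1 was the member that rose. It read 5.57, 5.43, 5.86 and 5.65 in the controls and 6.07, 6.63, 6.48 and 6.30 in the treated mice, a difference of 0.74 ± 0.14 (adjusted p = 0.0331). Dbp, Per3, Nr1d2 and Tef were called whichever array was left out. Per3 was not called with all 7 controls and no regard to array set (difference -1.47). The call of Per1 held only without 12 h mouse 1 or control 6 (differences 0.66 to 0.84) and that of Hlf only without 12 h mouse 4 or control 4 (-1.06 to -0.87, -0.90 without control 6).

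Among the other clock genes, named here after their values were seen, 4 had groups that did not overlap without passing the test. Over all genes, the 12 h mice lay all above the controls for 6.07% and all below them for 5.92%. Arntl read 5.59, 5.60, 4.50 and 4.29 in the controls and 6.49, 6.29, 6.13 and 6.22 in the treated mice, a difference of 1.29 ± 0.33 (adjusted p = 0.0897). Per2 was at 0.65 (adjusted p = 0.157), Cry2 at -0.53 (adjusted p = 0.0803) and Nr1d1, near the floor, at -0.57 (adjusted p = 0.283). Clock and Cry1 overlapped, with differences of 0.20 and -0.03. These genes vary through the day in most tissues, and since the hour of killing is not given for either group, the part of FSH in these differences was not tested.

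Inhibin genes rose. Inhibin, which Sertoli cells secrete and which restrains FSH release, joins an alpha chain (Inha) to a beta chain (Inhba or Inhbb), and beta chains alone form activin. Inha read 9.98, 10.31, 9.81 and 9.88 in the controls and 11.57, 11.97, 11.89 and 12.04 in the treated mice, a difference of 1.87 ± 0.14 (3.66-fold, adjusted p = 0.00109). Inhbb read 9.08, 9.34, 9.31 and 9.08 in the controls and 10.16, 10.09, 9.83 and 10.11 in the treated mice, a difference of 0.85 ± 0.10 (1.8-fold, adjusted p = 0.00494). Its other, dimmer probe set gave 0.28 and was not called by limma (adjusted p = 0.449). Both genes were separated between groups and were called without any 1 array. Inhba read 4.28, 4.72, 4.52 and 4.30 in the controls and 4.98, 4.71, 5.18 and 4.91 in the treated mice and did not pass the test (0.49 ± 0.13, adjusted p = 0.106). Of 40 measured genes of inhibin, activin and TGF-beta signalling, Inha and Inhbb were those called, with a median of -0.08. Over all genes 2.62% were higher and 2.29% lower.

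Secreted regulators of other growth factor pathways were among the largest rises. Pappa, a protease that frees insulin-like growth factors from a binding protein, read 3.89, 3.60, 4.19 and 4.30 in the controls and 6.35, 6.45, 7.88 and 7.59 in the treated mice, a difference of 3.07 ± 0.39 (8.42-fold, adjusted p = 0.00694). Igf1, the growth factor itself, read 8.48, 8.86, 8.62 and 8.39 in the controls and 9.27, 9.22, 9.15 and 9.40 in the treated mice, a difference of 0.67 ± 0.11 (adjusted p = 0.0184). Its 2 other probe sets gave 0.46 and 0.65 and were not called by limma (adjusted p = 0.657 and 0.516). The call of Igf1 was lost without 12 h mouse 4 or control 4, with all 7 controls without regard to array set (difference 1.03) and over 18 arrays with the array set as a block (0.67). These were the 2 called of 18 measured genes of the axis, against 2.62% of all genes higher, with a median of -0.00. Wif1, a secreted protein that binds Wnt ligands, read 3.02, 3.22, 3.13 and 3.16 in the controls and 6.57, 6.53, 6.61 and 7.16 in the treated mice. It rose by 3.59 ± 0.14 (12-fold, adjusted p = 0.000229), and mouse 4 stood above the other treated mice. Dkk3, a secreted member of the dickkopf family, read 4.05, 4.61, 3.00 and 4.97 in the controls and 6.07, 6.76, 6.98 and 7.04 in the treated mice, a difference of 2.56 ± 0.44 (adjusted p = 0.0242) that was not called without 12 h mouse 2, 12 h mouse 3, 12 h mouse 4 or control 4 (2.17 to 2.83). Control 6 was the lowest control for Dkk3, and the difference without it was 2.17. The ligand Wnt6 was lower (-0.74 ± 0.11, adjusted p = 0.0134). Of 32 measured Wnt ligands, receptors and inhibitors, 2 were higher and 1 lower, against 2.62% and 2.29% of all genes, with a median of 0.00.

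In Notch and hedgehog signalling 2 of 21 measured genes were higher and none lower, against 2.62% and 2.29% of all genes. Dtx1, a ubiquitin ligase of the Notch pathway, read 7.22, 6.70, 5.78 and 6.13 in the controls and 8.39, 8.86, 8.86 and 8.59 in the treated mice, a difference of 2.22 ± 0.31 (4.65-fold, adjusted p = 0.0105). Dhh, the hedgehog ligand that Sertoli cells make, was higher by 0.69 ± 0.14 (adjusted p = 0.0452), a call that held only without control 5 or control 6 (differences 0.56 to 0.80) and was lost with all 7 controls, with control 2 added and after quantile normalisation. Kitl, the Sertoli cell ligand for the receptor Kit on germ cells, read 9.64, 10.05, 9.41 and 9.39 in the controls and 10.51, 10.43, 10.55 and 10.86 in the treated mice, a difference of 0.97 ± 0.17 (adjusted p = 0.0239). Its call held only without 12 h mouse 2, control 5 or control 6 (0.88 to 1.11). Its 3 other probe sets gave 1.09, 0.85 and 1.03, and none was called by limma (adjusted p = 0.129, 0.438 and 0.12). Kit itself overlapped between groups (-0.29 ± 0.29, adjusted p = 0.814). None of 17 measured genes of VEGF and angiopoietin signalling was called by limma (4 at an unadjusted p below 0.05), and 10 of them had a mean level below 4. Receptors outside the lists moved too. Cxcr4, the receptor for the chemokine Cxcl12, read 4.31, 4.80, 3.57 and 3.49 in the controls and 6.17, 6.19, 6.51 and 5.98 in the treated mice, and Tnfrsf12a, a receptor of the TNF family, read 6.93, 7.29, 6.53 and 6.79 in the controls and 8.60, 8.82, 9.25 and 8.84 in the treated mice. Their rises were 2.17 ± 0.30 (4.49-fold, adjusted p = 0.0109) and 1.99 ± 0.19 (3.98-fold, adjusted p = 0.0028). Erbb3, a receptor for neuregulins, was lower (-2.09 ± 0.42, adjusted p = 0.0404), without a call when 12 h mouse 1, 12 h mouse 2, 12 h mouse 4, control 4, control 5 or control 7 was left out (-2.35 to -1.80), with all 7 controls, with control 2 added or after quantile normalisation.

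**Figure D3:**
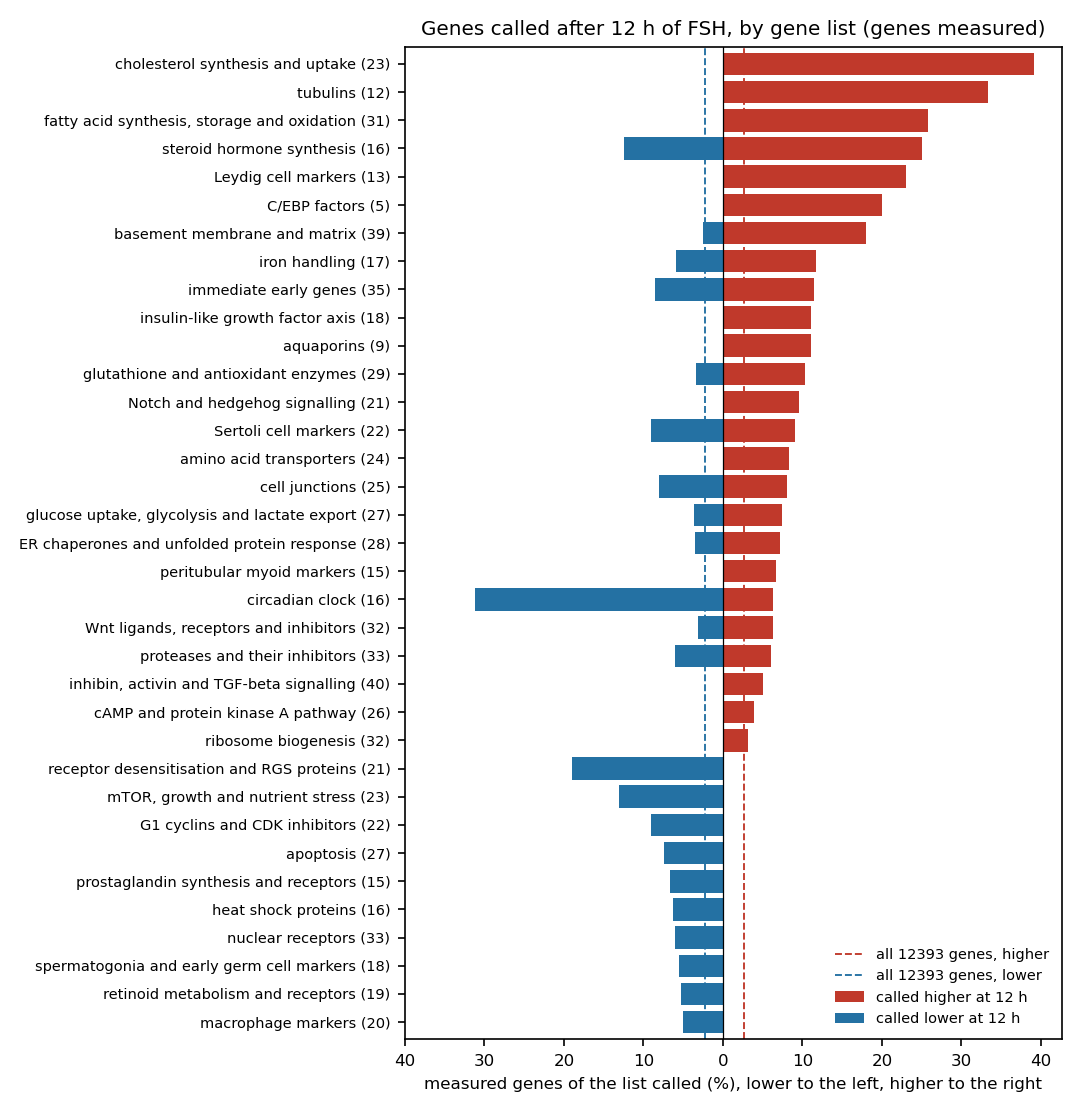
Share of the measured genes of each list that was called higher (right) or lower (left) after 12 h of FSH (horizontal axis, %), for the lists with at least 1 called gene, with the number measured in brackets. Dashed lines mark the shares over all 12393 genes, those near the floor included, 2.62% higher and 2.29% lower. Cholesterol synthesis and uptake has 9 of 23 genes higher and the circadian clock 5 of 16 lower.

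Steroid synthesis genes moved in both directions. Of 16 measured, 4 were higher (Star, Cyp17a1, Fdx1 and Tspo) and 2 lower (Stard3 and Npc2), against 2.62% and 2.29% of all genes, with a median of 0.22. Star, which carries cholesterol into mitochondria, read 5.19, 6.42, 5.22 and 5.62 in the controls and 7.92, 7.70, 8.71 and 8.26 in the treated mice, a difference of 2.53 ± 0.33 (5.79-fold, adjusted p = 0.0081). Cyp17a1, the enzyme that turns progestins towards androgens, read 8.43, 9.55, 8.25 and 7.30 in the controls and 11.50, 11.28, 11.20 and 11.01 in the treated mice. It rose by 2.86 ± 0.43 (7.26-fold, adjusted p = 0.0147). The controls were spread over more than 2 log2 units for Cyp17a1, and control 5 was the highest control for both genes. Fdx1, the electron donor of mitochondrial P450 enzymes, rose by 0.78 ± 0.12 (adjusted p = 0.016). Cyp11a1, the side-chain cleavage enzyme, read 2.69, 4.40, 2.84 and 2.85 in the controls and 6.78, 5.63, 4.42 and 4.90 in the treated mice. Its groups did not overlap, and it did not pass the test (2.24 ± 0.60, adjusted p = 0.103), though it did with all 7 controls (2.35) and among probe sets with a mean of at least 4 (2.24). Hsd3b1 read 11.68, 12.45, 11.66 and 11.21 in the controls and 11.85, 11.79, 10.99 and 11.52 in the treated mice, with overlap (-0.21 ± 0.30, adjusted p = 0.936). Hsd17b3 was near the floor and was not called (0.47 ± 0.15, adjusted p = 0.166), except without 12 h mouse 1.

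The smaller changes on this list were the less stable ones. The call of Fdx1 was lost without 12 h mouse 4 or control 7 (0.69 to 0.85), that of Stard3 (-0.54) held only without 12 h mouse 2, control 6 or control 7 (-0.62 to -0.48), that of Tspo (0.48) held only without control 6 (0.39 to 0.53) and that of Npc2 (-0.34) held only without control 7 (-0.39 to -0.29, -0.35 without control 6). Npc2 turned to 0.05 when all 7 controls were used. Of 13 measured Leydig cell markers, 3 were higher (Star, Cyp17a1 and Igf1) and 0 lower, against 2.62% and 2.29% of all genes, with a median of 0.47. The summed level of the 13 was 86.6 to 96.4 in the controls and 96.7 to 99.6 at 12 h. Cyp17a1, Star and Cyp11a1, with differences of 2.86, 2.53 and 2.24, weigh heavily in that sum, and 8 of the 13 had a difference above 0. Star and Cyp17a1 make up part of both lists, so the list is no separate evidence for them.

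Cholesterol synthesis was the list with the largest share of called genes, 9 of 23 measured higher and 0 lower, against 2.62% of all genes (2.29% lower). Its median difference was 0.62, 21 members lay above 0, and for 13 every treated mouse was above every control, which holds for 6.07% of all genes. The early enzymes make the mevalonate and isoprene units. Hmgcs1, which makes the precursor of mevalonate and whose promoter stretch is printed above, read 10.10, 10.52, 10.27 and 10.22 in the controls and 11.20, 10.97, 11.25 and 11.37 in the treated mice, a difference of 0.92 ± 0.11 (1.89-fold, adjusted p = 0.00669). Its 3 other probe sets gave 0.92, 1.01 and 1.09 and were not called by limma (adjusted p = 0.0598, 0.103 and 0.0618). Idi1, which interconverts the isoprene units, and Fdps, which joins them, rose by 1.07 ± 0.13 and 1.16 ± 0.15 (adjusted p = 0.00622 and 0.00788), and Mvd by 1.10 ± 0.18 (adjusted p = 0.0184). The call of Mvd was lost without 12 h mouse 2, 12 h mouse 3 or 12 h mouse 4 (1.0 to 1.25).

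The later enzymes turn squalene into cholesterol. Sqle, the squalene epoxidase, read 7.00, 7.00, 6.68 and 6.86 in the controls and 8.35, 8.24, 8.48 and 8.65 in the treated mice, a difference of 1.54 ± 0.11 (2.91-fold, adjusted p = 0.000876). Cyp51, the lanosterol demethylase, read 6.68, 6.63, 6.87 and 6.20 in the controls and 7.88, 8.07, 7.88 and 8.01 in the treated mice, a difference of 1.36 ± 0.14 (2.57-fold, adjusted p = 0.00313). Dhcr7, which completes cholesterol in 1 branch of the pathway, read 6.34, 6.67, 6.32 and 6.32 in the controls and 8.04, 8.25, 7.84 and 8.05 in the treated mice. It had the largest difference of the list, 1.64 ± 0.11 (3.11-fold, adjusted p = 0.000859). Sqle, Cyp51 and Dhcr7 each lay above every control in all 4 treated mice and were called whichever array was left out. Msmo1 and Nsdhl, which remove methyl groups from the sterol, rose by 1.09 ± 0.20 and 0.82 ± 0.11 (adjusted p = 0.0307 and 0.00849). The call of Msmo1 held only without 12 h mouse 1 or control 5 (0.97 to 1.25, 0.97 without control 6). The regulators of the pathway were not called. Srebf2, the factor that turns on sterol genes, was at 0.62 ± 0.25 (adjusted p = 0.292) with overlap, and Srebf1 at 0.13 ± 0.18 (adjusted p = 0.927). Insig2, which holds that factor back, was at -0.29 ± 0.07 (adjusted p = 0.0672). Scarb1, a receptor that takes up cholesterol esters, was at 0.54 ± 0.12 (adjusted p = 0.06), without overlap. Those 4 were named after their values were seen. Without control 6 the list had 9 higher, Msmo1 not among them, and 0 lower, with a median of 0.57.

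**Figure D4:**
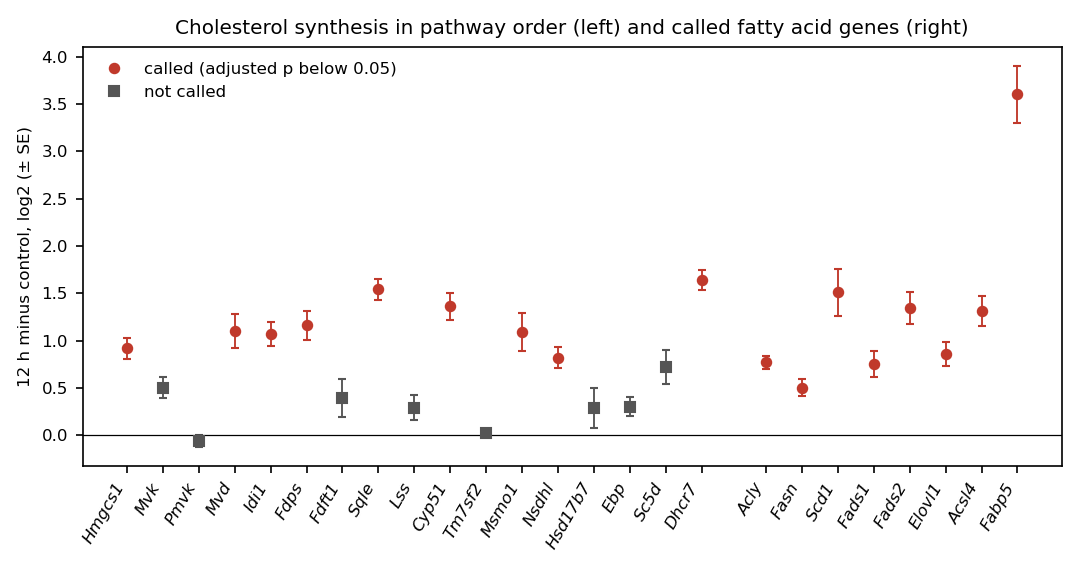
Difference between 12 h of FSH and controls on the log2 scale (vertical axis, mean ± SE, n = 4 against 4) for 17 enzymes of cholesterol synthesis in the order of the pathway (left) and the 8 called genes of fatty acid metabolism (right). Red circles are called genes and grey squares are not. Called sterol enzymes lie between 0.82 and 1.64, and Fabp5 is highest at 3.60.

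Of 31 measured genes of fatty acid metabolism, 8 were higher and 0 lower, against 2.62% and 2.29% of all genes, 23 were not called and the median was 0.30. Fabp5, a carrier of fatty acids in the cytoplasm, read 5.98, 6.69, 6.40 and 5.79 in the controls and 10.41, 10.00, 9.22 and 9.62 in the treated mice, a difference of 3.60 ± 0.30 (12.1-fold, adjusted p = 0.00169), and a second probe set gave 3.66. Acly, which makes cytosolic acetyl-CoA, rose by 0.77 ± 0.07 (adjusted p = 0.00218), and Fasn, the fatty acid synthase, by 0.50 ± 0.09 (adjusted p = 0.0258). Enzymes that desaturate or lengthen fatty acids followed. Scd1 read 7.33, 6.58, 6.28 and 6.23 in the controls and 8.11, 7.86, 8.17 and 8.32 in the treated mice, a difference of 1.51 ± 0.25 (adjusted p = 0.0209). Fads2 and Fads1 rose by 1.34 ± 0.17 and 0.75 ± 0.14 (adjusted p = 0.00756 and 0.036), and Elovl1 by 0.86 ± 0.13 (adjusted p = 0.0136). Acsl4, which activates long polyunsaturated fatty acids, read 7.57, 7.51, 7.25 and 7.23 in the controls and 8.92, 8.27, 8.83 and 8.80 in the treated mice, a difference of 1.31 ± 0.16 (adjusted p = 0.00591). Fabp5, Acly, Acsl4, Fads2 and Elovl1 were called without any 1 array. The calls of Scd1, Fasn and Fads1 held only without 12 h mouse 2, control 4 or control 6 (Scd1, 1.38 to 1.75), without control 4 or control 5 (Fasn, 0.44 to 0.57, 0.51 without control 6) and without 12 h mouse 1 or 12 h mouse 2 (Fads1, 0.62 to 0.84, 0.76 without control 6). Acly and Elovl1 were not called with all 7 controls (differences 0.55 and 1.33). Without control 6, 6 of the list were called. Gpd1, which makes the glycerol backbone of lipids, read 4.27, 4.25, 4.36 and 4.29 in the controls and 6.22, 6.37, 6.31 and 5.93 in the treated mice, a difference of 1.92 ± 0.09 (3.77-fold, adjusted p = 0.000493). It is on no list, and its 3 other, dimmer probe sets were not called.

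Genes of sugar metabolism moved in both directions. Of 27 measured genes of glucose uptake, glycolysis and lactate export, Aldoa and Pgk1 were higher (0.69 ± 0.12 (adjusted p = 0.0225) and 0.93 ± 0.17 (adjusted p = 0.0324)) and Ldhb was lower (-0.29 ± 0.06, adjusted p = 0.0437), against 2.62% and 2.29% of all genes, with a median of -0.01. These calls held only without 12 h mouse 1 or control 6 for Aldoa (0.64 to 0.80), 12 h mouse 1 or control 5 for Pgk1 (0.80 to 1.03, 0.90 without control 6) and 12 h mouse 2 for Ldhb (-0.33 to -0.25, -0.27 without control 6).

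Genes of the basement membrane were among the larger rises. Sertoli cells and the myoid cells around the tubules lay down this sheet together, and type IV collagen is its framework. Col4a1 read 7.76, 7.80, 7.23 and 7.10 in the controls and 10.13, 10.31, 10.68 and 10.57 in the treated mice, a difference of 2.95 ± 0.20 (7.73-fold, adjusted p = 0.000859). Col4a2, its partner chain, read 6.99, 7.06, 6.34 and 6.59 in the controls and 8.55, 8.48, 8.78 and 8.47 in the treated mice, and Col18a1, a collagen with heparan sulphate chains, read 7.27, 7.51, 6.74 and 7.19 in the controls and 8.88, 9.25, 9.33 and 9.06 in the treated mice. Their differences were 1.82 ± 0.17 (3.54-fold, adjusted p = 0.0026) and 1.95 ± 0.17 (3.87-fold, adjusted p = 0.00224). For all 3 collagens the lowest treated mouse was more than 1 log2 unit above the highest control. Lama1, a laminin chain, rose by 0.85 ± 0.11 and Serpinh1, the collagen chaperone, by 1.03 ± 0.13 (adjusted p = 0.00669 and 0.00723). Of 39 measured genes of basement membrane and matrix, 7 were higher and 1 lower, against 2.62% and 2.29% of all genes, 31 were not called and the median was 0.15. Plod2, a collagen lysyl hydroxylase, rose by 0.60 ± 0.11 (adjusted p = 0.0309) and Col15a1 by 1.04 ± 0.22 (adjusted p = 0.0469), while Lama2 was the one lower, at -0.68 ± 0.13 (adjusted p = 0.0337). Their calls held only without control 6 or control 7 for Plod2 (0.51 to 0.67), control 5 for Col15a1 (0.86 to 1.19, 0.97 without control 6) and 12 h mouse 1 or control 6 for Lama2 (-0.74 to -0.58).

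Enzymes that modify the matrix or its sugars were among the changes. Hs3st1, which adds a rare sulphate to heparan chains, read 2.63, 2.99, 2.73 and 2.52 in the controls and 4.77, 5.08, 5.79 and 6.23 in the treated mice, a difference of 2.75 ± 0.32 (6.73-fold, adjusted p = 0.00513). Hgsnat, a lysosomal enzyme of heparan sulphate breakdown, read 6.41, 6.69, 6.24 and 6.16 in the controls and 8.18, 8.50, 8.44 and 8.67 in the treated mice, a difference of 2.07 ± 0.14 (4.2-fold, adjusted p = 0.000876). Lgals1, a lectin that binds galactosides on cell surfaces and matrix, read 10.81, 11.33, 10.77 and 10.86 in the controls and 13.25, 13.10, 13.57 and 13.42 in the treated mice, a difference of 2.40 ± 0.15 (5.27-fold, adjusted p = 0.000724). In each of these 3 genes the groups were apart, as in every call. Among 33 measured proteases and inhibitors, 2 were higher and 2 lower, against 2.62% and 2.29% of all genes. Adamts5, a proteoglycan protease, rose by 0.86 ± 0.12 (adjusted p = 0.00988), and Mmp2, a gelatinase, read 6.96, 7.23, 7.00 and 6.85 in the controls and 5.61, 5.67, 5.82 and 6.14 in the treated mice and was lower, at -1.20 ± 0.13 (adjusted p = 0.00445). Mmp2 was not called with all 7 controls (-0.63) or with control 2 added (-0.99). Serpinb6a rose by 0.57 ± 0.11 (adjusted p = 0.0349) and Cst12, a cystatin of Sertoli cells, was lower, at -0.83 ± 0.15 (adjusted p = 0.0253). The last 2 calls held only without 12 h mouse 2 or control 5 (0.50 to 0.63, 0.50 without control 6) and without 12 h mouse 1 or control 6 (-0.97 to -0.75).

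Of 12 measured tubulins 4 were higher and 0 lower, against 2.62% and 2.29% of all genes, with a median of 0.15. Sertoli cells are tall, and microtubules run along their length. Tubb3, a beta tubulin best known from neurons, read 6.22, 6.37, 6.04 and 5.81 in the controls and 8.89, 9.04, 9.29 and 9.45 in the treated mice. Its difference of 3.06 ± 0.16 (8.32-fold, adjusted p = 0.000511) was the largest of the list. Tubb5, an abundant beta tubulin, read 10.68, 10.73, 10.47 and 10.80 in the controls and 11.72, 11.97, 11.81 and 11.94 in the treated mice, a difference of 1.19 ± 0.09 (2.28-fold, adjusted p = 0.00103). Tuba1a, an abundant alpha tubulin, read 11.42, 11.61, 11.16 and 11.16 in the controls and 12.34, 12.64, 12.30 and 12.30 in the treated mice, a difference of 1.06 ± 0.13 (2.08-fold, adjusted p = 0.0061). For Tubb3, Tubb5 and Tuba1a every treated mouse was above every control. Tubb6 rose by 1.43 ± 0.23 (adjusted p = 0.0181), a call lost without 12 h mouse 3, 12 h mouse 4 or control 4 (1.29 to 1.66). Tubulin genes are close in sequence, and cross-hybridisation between them was not tested.

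Junction genes moved both ways, 2 of 25 measured up and 2 down, against 2.62% and 2.29% of all genes, with a median of -0.01. Nectin2, an adhesion molecule of the contacts between Sertoli and germ cells, read 7.56, 7.90, 7.33 and 7.63 in the controls and 9.28, 8.91, 9.04 and 8.70 in the treated mice, a difference of 1.38 ± 0.16 (2.6-fold, adjusted p = 0.00486). A second Nectin2 probe set gave 0.53 and was not called by limma (adjusted p = 0.12). Cldn1, a tight junction protein, read 5.78, 5.41, 5.30 and 5.26 in the controls and 4.42, 3.76, 4.03 and 3.74 in the treated mice, a difference of -1.46 ± 0.18 (2.74-fold, adjusted p = 0.00681). F11r, a tight junction adhesion molecule, was lower, at -1.16 ± 0.18 (adjusted p = 0.018), and Vcl, which links actin to adhesions, rose by 0.58 ± 0.09 (adjusted p = 0.0147). Vcl was not called without 12 h mouse 3, 12 h mouse 4 or control 7 (0.51 to 0.64), with all 7 controls or with control 2 added, and F11r not without 12 h mouse 4 or control 7 (-1.31 to -1.06). Outside the list Ctnna2, an alpha catenin, read 6.78, 6.53, 6.62 and 6.65 in the controls and 4.89, 4.79, 4.67 and 4.71 in the treated mice. It fell by 1.88 ± 0.07 on the log2 scale (3.68-fold, adjusted p = 0.000229), with every array close to its group mean.

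Proteins that move water, amino acids, iron or lipids across membranes changed strongly in a few cases. Aqp5, a water channel known from gland epithelia, read 3.42, 3.22, 2.77 and 3.36 in the controls and 7.12, 6.86, 7.98 and 7.47 in the treated mice. It rose by 4.16 ± 0.26 (17.9-fold, adjusted p = 0.000724) from levels near the floor, where a fold understates the change, and was the only one called of 9 measured aquaporins. Of those 9, 8 had a mean level below 4, so that little could be seen of the rest of the family. Slc38a5, a glutamine transporter, read 3.88, 3.28, 3.85 and 3.59 in the controls and 4.93, 5.63, 5.90 and 5.98 in the treated mice, a difference of 1.96 ± 0.25 (3.89-fold, adjusted p = 0.00768). Slc1a4 rose by 0.84 ± 0.13 (adjusted p = 0.0177), a call lost without 12 h mouse 3 (0.77), with all 7 controls and with control 2 added. They were the 2 called of 24 measured amino acid transporters, against 2.62% of all genes higher, and 14 of the 24 had a mean level below 4. Esyt3, a tether between the endoplasmic reticulum and the cell membrane that moves lipid, read 6.79, 6.47, 6.76 and 6.74 in the controls and 8.85, 9.12, 8.77 and 8.67 in the treated mice, a difference of 2.16 ± 0.11 (4.47-fold, adjusted p = 0.000511).

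For iron, 2 of 17 measured genes were higher and 1 lower, against 2.62% and 2.29% of all genes. Slc40a1, the sole known iron exporter of cells, read 7.09, 7.64, 7.03 and 7.25 in the controls and 5.54, 4.69, 4.88 and 5.32 in the treated mice, a difference of -2.15 ± 0.22 (4.43-fold, adjusted p = 0.00336). Slc11a2, an iron importer, read 5.92, 5.64, 5.17 and 5.61 in the controls and 6.98, 7.31, 7.43 and 7.55 in the treated mice, a difference of 1.73 ± 0.18 (3.32-fold, adjusted p = 0.0037). The exporter was below every control and the importer above every control in all 4 treated mice. Lcn2, near the floor, was higher by 0.72 ± 0.12 (adjusted p = 0.0239), and its call held only without 12 h mouse 2 or control 7 (0.66 to 0.82, 0.68 without control 6) and was lost with all 7 controls. Scara5, a receptor that takes up ferritin and is on no list, read 8.16, 8.51, 8.14 and 7.63 in the controls and 10.30, 10.31, 10.50 and 10.50 in the treated mice, a difference of 2.29 ± 0.17 (4.89-fold, adjusted p = 0.00113). Its 1 other probe set, at the floor, gave -0.01.

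Other large rises came from many functions. Dmkn, a secreted protein of epithelia, read 2.27, 2.37, 2.34 and 2.34 in the controls and 6.40, 5.58, 7.60 and 6.23 in the treated mice and rose by 4.12 ± 0.39 (17.4-fold, adjusted p = 0.00263) from the floor, so that its order with Aqp5 cannot be set. Tesc, a calcium-binding protein, read 4.72, 4.69, 4.62 and 4.60 in the controls and 7.32, 6.59, 8.47 and 7.43 in the treated mice, and Bhmt, which uses betaine to remake methionine, read 3.77, 3.55, 3.76 and 3.68 in the controls and 6.18, 5.82, 5.91 and 6.80 in the treated mice. Their differences were 2.79 ± 0.35 (6.93-fold, adjusted p = 0.0073) and 2.49 ± 0.21 (5.61-fold, adjusted p = 0.00181). Mouse 3 was the highest treated mouse for Dmkn and Tesc. Hdc, which makes histamine, read 4.80, 5.72, 5.34 and 4.45 in the controls and 7.53, 6.77, 6.92 and 7.03 in the treated mice, a difference of 1.98 ± 0.30 (3.95-fold, adjusted p = 0.0145). Cbarp, a regulator of calcium channels, and Gca, a calcium-binding protein, rose by 2.39 ± 0.20 and 1.86 ± 0.21 (adjusted p = 0.00173 and 0.0047). Fbxo4, a subunit of a ubiquitin ligase, rose by 1.99 ± 0.16 (adjusted p = 0.0016).

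Crym and Sod3 depended on single arrays. Crym, a protein that binds thyroid hormone, read 3.09, 3.22, 2.74 and 3.41 in the controls and 5.88, 5.01, 5.90 and 4.13 in the treated mice, a difference of 2.12 ± 0.41 (adjusted p = 0.0353). Sod3, the extracellular superoxide dismutase, read 5.30, 6.85, 5.33 and 6.38 in the controls and 7.53, 8.15, 8.13 and 8.07 in the treated mice, a difference of 2.01 ± 0.38 (adjusted p = 0.0333). The calls held only without 12 h mouse 4 for Crym (1.89 to 2.48) and without control 5 for Sod3 (1.78 to 2.30). Without control 6 their differences were 1.99 and 1.79.

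Tmem37, a membrane protein related to calcium channel subunits, was among the larger falls and read 7.63, 6.40, 7.44 and 7.42 in the controls and 4.07, 4.07, 4.60 and 4.61 in the treated mice. Its difference was -2.88 ± 0.29 (7.38-fold, adjusted p = 0.00313), with control 5 the lowest control. Rin2, which acts on Ras and Rab proteins, read 7.02, 7.06, 6.81 and 7.16 in the controls and 4.06, 4.08, 4.18 and 4.64 in the treated mice, a difference of -2.77 ± 0.14 (6.84-fold, adjusted p = 0.000511). Coq8a, a kinase-like protein needed for coenzyme Q, read 8.26, 7.92, 7.69 and 8.11 in the controls and 5.69, 5.39, 5.88 and 5.71 in the treated mice, a difference of -2.33 ± 0.15 (5.02-fold, adjusted p = 0.000724), and its 1 other, dimmer probe set gave -0.13 (adjusted p = 0.559). Hdac5, a class IIa histone deacetylase, read 6.53, 6.18, 6.28 and 6.77 in the controls and 4.19, 4.59, 4.43 and 4.34 in the treated mice, a difference of -2.05 ± 0.15 (4.15-fold, adjusted p = 0.000876). None of these 4 overlapped between groups, as for every call, and each was called whichever array was left out.

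Tnni3 and Myh8, best known from muscle, were among the falls. Tnni3, troponin I of heart muscle, read 10.68, 10.57, 10.44 and 10.59 in the controls and 8.44, 8.81, 8.38 and 8.96 in the treated mice, a difference of -1.92 ± 0.14 (3.79-fold, adjusted p = 0.000943). Myh8, a myosin heavy chain of developing skeletal muscle, read 5.70, 5.97, 4.82 and 5.96 in the controls and 3.35, 3.32, 2.92 and 3.20 in the treated mice, a difference of -2.42 ± 0.26 (5.34-fold, adjusted p = 0.00443). Both were separated between groups, as every call was, and Tnni3 was among the brighter of the named falls. Scin, which severs actin filaments, was lower, at -1.97 ± 0.40 (adjusted p = 0.0419). Its call held only without control 6 (-2.30 to -1.69) and was lost after quantile normalisation. Few markers of the peritubular myoid cells passed the test. Of 15 measured, 14 had a difference above 0 and the median was 0.38, and 1 was called, Tpm2, at 1.01 ± 0.20 (adjusted p = 0.0424). That call held only without control 5 (0.84 to 1.18, 1.01 without control 6), so that without control 6 none was called, with a median of 0.45.

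Growth control and stress genes included several falls. Ddit4l, an inhibitor of the growth kinase mTOR, read 7.96, 8.58, 8.11 and 8.04 in the controls and 6.02, 6.14, 5.78 and 5.99 in the treated mice, a difference of -2.19 ± 0.15 (4.57-fold, adjusted p = 0.000854). Crebrf, a regulator of the unfolded protein response, read 8.68, 8.14, 8.40 and 8.48 in the controls and 6.45, 6.04, 5.96 and 5.78 in the treated mice, a difference of -2.37 ± 0.17 (5.16-fold, adjusted p = 0.000876). Both were lower in every treated mouse than in any control. With Tsc1 (-0.70 ± 0.14, adjusted p = 0.0411), a brake on mTOR, they were the 3 called of 23 measured genes of mTOR, growth and nutrient stress, all lower, with a median of -0.00. Over all genes 2.29% were lower. The call of Tsc1 held only without 12 h mouse 2 or control 6 (-0.76 to -0.57).

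In the endoplasmic reticulum, Derl3, which draws misfolded proteins out for breakdown, read 7.80, 8.16, 8.10 and 8.27 in the controls and 6.43, 5.89, 5.08 and 5.45 in the treated mice, a difference of -2.37 ± 0.28 (5.16-fold, adjusted p = 0.00563). Herpud1, of the same disposal complex, read 7.93, 8.23, 8.32 and 8.14 in the controls and 6.26, 6.77, 6.64 and 7.02 in the treated mice, a difference of -1.48 ± 0.16 (2.79-fold, adjusted p = 0.00463). By contrast Calr, a folding chaperone, and Sec61b, a subunit of the import channel, rose by 0.62 ± 0.09 and 0.64 ± 0.06 (adjusted p = 0.0112 and 0.0026). Of 28 measured genes of chaperones and the unfolded protein response, 2 were higher and 1 lower, against 2.62% and 2.29% of all genes, with a median of 0.01. Hspb1, a small heat shock protein, read 10.68, 10.37, 10.94 and 10.77 in the controls and 9.35, 9.44, 9.35 and 9.23 in the treated mice, a difference of -1.35 ± 0.12 (2.55-fold, adjusted p = 0.00219), and was the only one of 16 heat shock genes called. Of 27 apoptosis genes 2 were lower, against 2.29% of all genes. Bik, which promotes cell death, fell by 1.42 ± 0.17 (adjusted p = 0.00576) and Cflar, which blocks it, had a difference of -0.77 ± 0.15 (adjusted p = 0.0356). Bik was not called with all 7 controls (-1.10) or with control 2 added (-1.20), and the call of Cflar held only without 12 h mouse 1, 12 h mouse 3 or 12 h mouse 4 (-0.85 to -0.65, -0.75 without control 6).

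Antioxidant enzymes had 3 of 29 measured members higher and 1 lower, against 2.62% and 2.29% of all genes, with a median of 0.06. Gsta4, a glutathione transferase for lipid aldehydes, read 11.24, 11.36, 11.20 and 11.31 in the controls and 12.28, 12.00, 11.99 and 12.00 in the treated mice, a difference of 0.79 ± 0.08 (1.73-fold, adjusted p = 0.00286). Prdx2 rose by 0.75 ± 0.15 (adjusted p = 0.0363) and Gstt1 was lower, at -0.46 ± 0.09 (adjusted p = 0.0424), calls that held only without control 5 (0.68 to 0.89, 0.71 without control 6) and without control 6 (-0.53 to -0.39). Cdo1, which breaks down cysteine, read 7.52, 7.18, 6.97 and 7.60 in the controls and 4.73, 5.82, 5.29 and 5.51 in the treated mice, a difference of -1.98 ± 0.25 (3.94-fold, adjusted p = 0.00723).

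No gene of DNA replication or mitosis on the list was called at 12 h. Of 35 measured genes of S phase and mitosis, 0 were called by limma (7 at an unadjusted p below 0.05), 3 had a difference above 0 and the median was -0.24. Among 22 G1 cyclins and inhibitors of cyclin-dependent kinases, 2 were lower, both brakes on the cycle, against 2.29% of all genes. Rbl2, a relative of the retinoblastoma protein, read 8.16, 8.17, 7.84 and 7.83 in the controls and 7.14, 6.68, 6.54 and 6.92 in the treated mice, a difference of -1.18 ± 0.15 (2.26-fold, adjusted p = 0.00745). Cdkn1b, the inhibitor p27, was at -0.77 ± 0.13 (adjusted p = 0.0225), a call that held only without 12 h mouse 1 or control 6 (-0.89 to -0.71). Of 32 ribosome biogenesis genes 1, Nhp2, was called (0.68 ± 0.11, adjusted p = 0.0163, lost without 12 h mouse 4 or control 7, 0.61 to 0.76), and the median was 0.15. None of 20 interferon response genes was called by limma (4 at an unadjusted p below 0.05), with a median of -0.16 and 2 above 0, and 10 had a mean level below 4. Ddx60, a helicase induced by interferon and outside that list, was lower (-2.21 ± 0.38, adjusted p = 0.0246), a call lost without 12 h mouse 1, 12 h mouse 2, 12 h mouse 3, control 4 or control 7 (-2.42 to -2.0) or with control 2 added.

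The remaining large falls were in regulators. Stard8, a protein with a lipid-binding START domain, read 8.25, 7.92, 7.89 and 8.02 in the controls and 6.54, 6.0, 5.66 and 5.75 in the treated mice, a difference of -2.04 ± 0.20 (4.11-fold, adjusted p = 0.0028). Trim47, a ubiquitin ligase, read 8.26, 8.03, 7.67 and 8.12 in the controls and 5.94, 6.29, 5.85 and 6.02 in the treated mice, a difference of -2.0 ± 0.15 (3.99-fold, adjusted p = 0.00103). Spsb1, an adaptor of ubiquitin ligases, read 6.59, 6.08, 5.63 and 6.08 in the controls and 4.19, 4.17, 4.15 and 4.19 in the treated mice and was lower, at -1.92 ± 0.18 (adjusted p = 0.00262), while its 3 other, dimmer probe sets were not called. All 3 genes were called whichever array was left out. Nuclear receptors had 2 of 33 measured genes lower, against 2.29% of all genes, and 23 of the 33 had a mean level below 4. The lower ones were Nr1d2 and Rxrb, a partner receptor of retinoid signalling (-0.49 ± 0.08, adjusted p = 0.0224, held only without 12 h mouse 3 or control 6, -0.54 to -0.45). Rxrb was also the 1 called of 19 retinoid genes. Of 15 prostaglandin genes, Hpgd, which inactivates prostaglandins, was lower (-0.65 ± 0.12, adjusted p = 0.0363), a call that held only without control 5 or control 6 (-0.71 to -0.52) and was lost over 18 arrays with the array set as a block.

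Among cell type markers, 2 of 22 Sertoli genes were higher (Kitl and Dhh) and 2 lower (Fshr and Cst12), against 2.62% and 2.29% of all genes, with a median of 0.01. Clu, the abundant secreted clusterin, was not called on its brightest probe set (-0.26 ± 0.12, adjusted p = 0.377), but on its 3 other probe sets it was lower, at -0.50, -0.54 and -0.60 (adjusted p = 0.041, 0.0296 and 0.0288). For macrophages 1 of 20 markers was lower, Laptm5 (-0.58 ± 0.12, adjusted p = 0.0484), a call that held only without 12 h mouse 3 (-0.66 to -0.50, -0.56 without control 6), and the median was -0.27 with 3 above 0. The summed level of those 20 was 111.0 to 114.0 in the controls and 103.0 to 109.0 at 12 h. None of 14 endothelial markers was called by limma (2 at an unadjusted p below 0.05), and 8 of them had a mean level below 4.

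Germ cell markers were slightly lower in the median, and 1 was called. Of 18 spermatogonial and early germ cell genes, Sall4, a factor of stem and progenitor cells, was lower (-0.65 ± 0.14, adjusted p = 0.0481), a call that held only without 12 h mouse 3 (-0.78 to -0.59, -0.68 without control 6), and the median was -0.21. Stra8, which marks entry into meiosis, read 9.83, 10.19, 9.64 and 9.82 in the controls and 9.60, 9.74, 9.50 and 9.29 in the treated mice, with overlap (-0.33 ± 0.14, adjusted p = 0.3). Dazl and Sycp3, of germ cells and of meiotic chromosomes, were at -0.19 ± 0.18 (adjusted p = 0.773) and -0.18 ± 0.17 (adjusted p = 0.785), with overlap. None of 15 meiotic prophase genes was called by limma (6 at an unadjusted p below 0.05, against 3604 of all 22626 probe sets). Of these genes 0 had a difference above 0, with a median of -0.33. The 17 pachytene and spermatid markers, of which 0 were called by limma (0 at an unadjusted p below 0.05), had a median of -1.28, which became -0.01 without control 6.

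The 72 h mice, whose arrays belong to the same set, were set beside the 12 h mice. The named genes were chosen on the 12 h arrays, so that a smaller distance from the controls at 72 h is partly fixed by that choice, and both times share controls 4 to 7. Between 72 h and 12 h, in a fit over the 12 arrays of the set, 592 probe sets (2.62%) were called, 332 higher and 260 lower at 72 h. Of the 30 rises 12 were lower at 72 h than at 12 h and 1 was higher, and of the 20 falls 6 were higher and 0 lower. In a fit of the 12 h and 72 h arrays alone the count was 533, and with the shared replicate number added to that fit as a block it was 98.

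Several of the largest rises had lower levels at 72 h than at 12 h. Aqp5 read 3.91, 4.26, 4.33 and 3.28 in the 4 mice at 72 h, -3.42 ± 0.29 (adjusted p = 0.000478) relative to 12 h. Hs3st1 read 2.76, 2.76, 2.82 and 3.23, Crym 2.73, 2.39, 2.35 and 2.35 and Tnfrsf12a 6.52, 6.27, 6.49 and 5.29, with differences from 12 h of -2.58 ± 0.28 (adjusted p = 0.0016), -2.78 ± 0.35 (adjusted p = 0.00349) and -2.74 ± 0.27 (adjusted p = 0.00104). Dmkn read 2.52, 3.68, 3.57 and 4.99, -2.76 ± 0.51 (adjusted p = 0.0201) relative to 12 h. All 4 of these mice lay below every control for Crym and Tnfrsf12a, but the highest, 2.73 and 6.52, nearly met the lowest controls, 2.74 and 6.53. Neither gene passed the test between 72 h and controls by limma over 12 arrays (-0.66, adjusted p = 0.373, and -0.74, adjusted p = 0.159). For Hs3st1, 3 of the 4 lay within the range of the controls. Cyp17a1 read 8.46, 8.35, 9.07 and 9.28 and Star 6.25, 6.58, 6.59 and 6.52, both lower than at 12 h (-2.46 ± 0.40 (adjusted p = 0.0122) and -1.66 ± 0.29 (adjusted p = 0.0143)). The same held for the sterol enzymes. Sqle read 7.31, 6.88, 7.35 and 7.19, Dhcr7 7.12, 6.89, 7.13 and 6.92 and Idi1 8.06, 7.64, 7.96 and 8.01, with differences from 12 h of -1.24 ± 0.12 (adjusted p = 0.00102), -1.03 ± 0.11 (adjusted p = 0.00109) and -0.94 ± 0.13 (adjusted p = 0.0053). Fos and Nr4a1 had differences of -1.39 ± 0.29 (adjusted p = 0.0344) and -1.42 ± 0.22 (adjusted p = 0.00978).

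Other genes did not pass the test against 12 h. Inha read 11.99, 11.99, 11.91 and 11.87, 0.07 ± 0.12 (adjusted p = 0.839) relative to 12 h. Tubb3 read 9.16, 9.29, 9.17 and 9.06 and Fabp5 9.82, 10.05, 10.26 and 10.40, with differences of 0.00 ± 0.14 (adjusted p = 0.998) and 0.32 ± 0.27 (adjusted p = 0.737). The lower levels of Fshr (4.96, 5.39, 5.68 and 5.55), Rin2 (4.04, 4.35, 3.85 and 3.76) and Tmem37 (4.11, 4.63, 4.60 and 3.84) were seen again at 72 h, with differences from 12 h of -0.01 ± 0.16 (adjusted p = 0.978), -0.24 ± 0.16 (adjusted p = 0.646) and -0.04 ± 0.29 (adjusted p = 0.957). A p above the threshold does not show that the levels were equal. Slc38a5 went further in the same direction. It read 7.86, 8.23, 8.36 and 8.75, 2.69 ± 0.26 (adjusted p = 0.000999) relative to 12 h. Of the falls, Derl3 read 7.93, 8.71, 7.83 and 8.77, within or above the range of the controls in all 4 mice (2.59 ± 0.30, adjusted p = 0.00245). Dbp (9.84, 9.86, 9.85 and 9.69) and Nr1d2 (8.98, 9.01, 9.30 and 9.43) differed from 12 h by 1.05 ± 0.16 (adjusted p = 0.00899) and 0.15 ± 0.12 (adjusted p = 0.724). Tnni3 and Cdo1 rose again by 1.40 ± 0.14 (adjusted p = 0.00102) and 1.50 ± 0.22 (adjusted p = 0.0072).

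**Figure D5:**
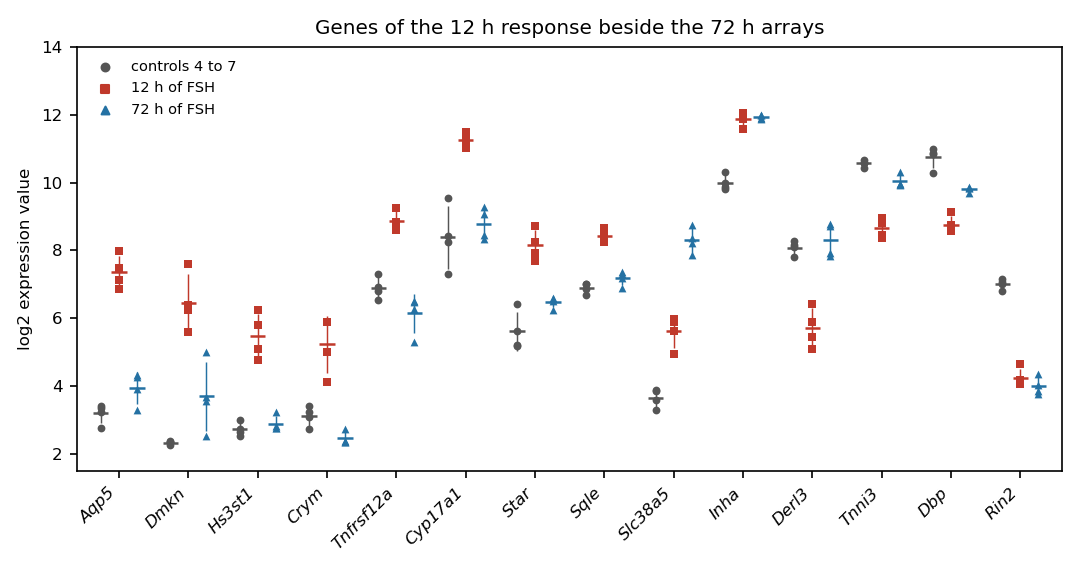
Log2 expression value (vertical axis) of 14 genes in controls 4 to 7 (grey circles), after 12 h (red squares) and after 72 h of FSH (blue triangles), 1 point per mouse, with the mean as a horizontal bar and the SD as a vertical line (n = 4 per group). Aqp5 reads 6.86 to 7.98 at 12 h and 3.28 to 4.33 at 72 h, Slc38a5 is higher at 72 h than at 12 h, and Inha and Rin2 overlap between 12 h and 72 h.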

How the data were processed

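Testis RNA of single hpg mice was hybridised to Affymetrix MOE430A arrays, and the authors deposited 1 table of log2 expression values for 18 arrays. Per the submitters' processing notes RMA and GCRMA were used; which of them made these values is not given in the sources used here. Of 22690 probe sets, 64 controls were left out and 22626 tested with limma 3.58.1 in R 4.3.3 (lmFit, eBayes, two-sided, Benjamini-Hochberg). The 12 h mice 1 to 4 were set against controls 4 to 7, with no covariate; these 8 arrays carry Dap, which 6 arrays of the series lack (Dap 2.70 to 3.41). The labels give 1 mouse per array.

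Platform annotation gave 20380 probe sets 1 symbol, 691 several and 1555 none. Each of 12393 genes was taken on its probe set with the highest mean. Many genes had other probe sets, some of them not called, and these are given for some genes only. No named gene had another probe set called in the other direction. Named genes were the 30 largest rises and 20 largest falls among called genes without overlap whose higher group averaged at least 5, up to 6 called genes per list, and a few genes of known interest. The 45 lists hold 1022 genes, 914 of them measured. Members and lists were chosen with earlier results of these data known. Lists are described by counts and medians, with no test. The test was checked on simulated data with independent normal noise and no outlying array, unlike the real arrays. Of 22626 simulated probe sets 10 were false calls, beside 74 and 97 true ones. Alternatives were other controls, other arrays, quantile normalisation, median centring, a mean of at least 4, eBayes with trend, and each array left out.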

Additional observations from a re-analysis of the deposited data

Results flagged for a closer look

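In 15 of 298 groups of 4 mice examined, the highest or lowest array lay apart from the rest, with a gap to its nearest neighbour above Dixon's critical share of the group's whole range, a share that chance gives in about 1 in 20 groups. Among the controls, control 5 was the array apart for Lgals1 (11.33), Dhcr7 (6.67), Serpinh1 (8.45) and Cyp11a1 (4.40), all highest, and for Esyt3 (6.47) and Tmem37 (6.40), both lowest. Control 6 was the lowest for Rgs2 (9.29, nearest 10.07) and Ier3 (6.14, nearest 6.47). Among the treated mice, mouse 1 was highest for Gsta4 (12.28) and Kit (7.75) and lowest for Sod3 (7.53). Mouse 2 was highest for Tuba1a (12.64) and lowest for Tsc1 (5.31). Mouse 3 was highest for Sall4 (6.20) and mouse 4 for Wif1 (7.16, nearest 6.61).

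Among the 30 largest rises and 20 largest falls at 12 h, 10 genes, 5 in each direction, had the largest called differences between 72 h and 12 h, by limma over 12 arrays (adjusted p from 0.000478 for Aqp5 to 0.0201 for Dmkn). The difference, 72 h minus 12 h, was -3.42 for Aqp5, -2.78 for Crym, -2.76 for Dmkn, -2.74 for Tnfrsf12a and -2.58 for Hs3st1. It was 2.69 for Slc38a5, a gene that had risen at 12 h. It was 2.59 for Derl3, 1.50 for Cdo1, 1.40 for Tnni3 and 1.05 for Dbp, which had fallen at 12 h.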

How the results depend on the processing

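No paired analysis was possible because the 12 h and control groups share only 1 replicate number. The 12 h and 72 h groups share 4. Their deviations correlated by 0.107, 0.13, 0.0133 and 0.0677, and 4 of 8 arrays correlated best with their own number. These values do not settle whether mice of equal number share more than the number. The differences between 72 h and 12 h given above come from the fit without a replicate block. Over the 12 h and 72 h arrays alone, without controls, 533 probe sets differed between these times, and the replicate block lowered that count to 98. With 1 array left out, the count called at 12 h ran from 497 to 889, higher from 289 to 475, lower from 208 to 445 and between 72 h and 12 h from 308 to 527. Over the 12 arrays of the set, 597 were lower, against 394. Other settings kept the total within 1.5 times of 937, from 795 (quantile normalisation) to 1356 (12 arrays). Npc2 went from -0.34 to 0.05 (adjusted p = 0.912) with all 7 controls and no block; the cause was not tested. Of the other alternative values, 345 of named genes no longer passed the threshold and 4 newly did, 363 list counts moved by over 1.5 times, and 3020 did none of these. With all 7 controls, and again with control 2 added, Fos, Hlf, Plod2, Sall4, Stard3, Ldhb, Cflar and Laptm5 were also not called. The 4 mice a group limit the precision: on simulated data of this design 74 of 100 genes changed by 1 log2 unit were recovered, and 97 of 100 changed by 2.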

Other observations

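Cst9, a cystatin of the testis on the Sertoli cell list, varied more between mice than between groups. It read 6.45, 11.45, 11.49 and 6.70 in controls 4 to 7 and 9.73, 10.40, 4.29 and 3.74 in 12 h mice 1 to 4, so each group held arrays more than 4 log2 units apart. Its difference was -1.98 ± 2.06 (adjusted p = 0.82) by limma, n = 4 against 4.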
